A study of Rattus norvegicus with 32 samples.

Results

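The 9 genes described here (Prox1, C1ql2, C1ql3, Trpc6, Dsp, Calb1, Pdzd2, Tdo2 and Npnt) are genes used as markers of dentate granule neurons, taken by name from the 28914 genes counted in each of 32 brain RNA-seq libraries. The libraries came from adult male Sprague-Dawley rats given 4 intraperitoneal injections, 2 h apart, of METH (methamphetamine, 10 mg/kg) or saline (1 mL/kg, Sal), with tissue taken on the day after the last injection. Each treatment has 4 libraries of the dentate gyrus (DG), of the cornu ammonis (CA) of the same hippocampus, of the nucleus accumbens (NAc) and of the subventricular zone (SVZ). Each library is a bulk sample of a hand-dissected or punched piece, so that fewer cells of a type and less RNA per cell cannot be told apart.

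Granule neurons are the principal excitatory cells of the DG. They receive input from the entorhinal cortex and send mossy fibres to pyramidal neurons of the CA. Prox1 is a homeodomain transcription factor that granule neurons need to take on and keep their identity. C1ql2 and C1ql3 are secreted C1q-like proteins of the synapse, of which C1ql2 acts at mossy fibre synapses. Trpc6 is a cation channel opened by diacylglycerol, Calb1 (calbindin) buffers calcium, and Dsp (desmoplakin) links desmosomes to the cytoskeleton. Npnt (nephronectin) is an integrin ligand of the extracellular matrix, Tdo2 is a tryptophan dioxygenase of the kynurenine pathway, and Pdzd2 is a protein with several PDZ domains. Several of them also serve outside the DG: Calb1 in striatal and cortical neurons and Prox1 in the thalamus and in some interneurons.

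In rn6, the build of the files, Prox1 (chr13:108382399-108443294, plus strand) and C1ql2 (chr13:36378356-36380302, plus) lie on chromosome 13, and Dsp (chr17:27286796-27334379, minus) and C1ql3 (chr17:80314186-80320681, minus) on chromosome 17. Pdzd2 (chr2:62399748-62634785), Tdo2 (chr2:180897011-180914940) and Npnt (chr2:238002990-238068694) lie on the minus strand of chromosome 2. Calb1 (chr5:29538380-29562773) and Trpc6 (chr8:6811543-6917535) lie on the plus strand. The reads were counted over annotated exons without regard to strand, and those exons sum to 7235 bases for Prox1 and only 768 for C1ql3.

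The members Prox1, C1ql2, C1ql3 and Trpc6 varied together in the DG libraries, and promoter sequences were available from RefSeq for 7 of the 9 genes. The 250 bases before the annotated start are shown for the pair of these co-varying genes with the clearest call between regions (Trpc6) and the highest level per length (C1ql3), in GRCr8, for chr17:81038245-81038494 (minus strand) and chr8:14043966-14044215 (plus strand). Capitals mark CAGCTG, a sequence of the E-box type that basic helix-loop-helix factors bind, and the TATA box TATAAA.
C1ql3: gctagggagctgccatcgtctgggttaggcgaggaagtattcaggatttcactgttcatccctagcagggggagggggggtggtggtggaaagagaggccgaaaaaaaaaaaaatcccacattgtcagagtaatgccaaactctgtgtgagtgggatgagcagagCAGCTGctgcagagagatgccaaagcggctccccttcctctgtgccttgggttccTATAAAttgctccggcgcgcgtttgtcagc
Trpc6: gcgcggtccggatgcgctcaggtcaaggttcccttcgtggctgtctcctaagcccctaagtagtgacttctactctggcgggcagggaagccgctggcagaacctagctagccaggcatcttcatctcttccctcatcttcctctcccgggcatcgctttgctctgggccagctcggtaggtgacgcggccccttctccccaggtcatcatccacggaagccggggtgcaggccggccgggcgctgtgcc

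Both strands were searched for 4 motifs, none of which overlaps another in these windows. CAGCTG occurs in 12.0% of 33469 promoter windows of this length. The second E-box type, searched as CATCTG and its reverse complement, occurs in 14.0% of the windows. The GC box, searched as GGGCGG and its reverse complement, occurs in 30.5%. The TATA box, searched as TATAAA and its reverse complement, occurs in 12.9%. C1ql3 held 1 CAGCTG, 85 to 80 bases before its start, and 1 TATAAA, 30 to 25 bases before it. The Trpc6 window held none of the 4. The GC content was 54.0% in the C1ql3 window and 64.4% in the Trpc6 window.

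Expression is given in CPM, the reads of a gene scaled to a common library size by the upper quartile of each library. The total count per library lay between 11094002 and 21869773, and 1 read was worth between 0.0442 and 0.0934 CPM. Several libraries stood apart by markers of other cells. The summed level of 8 markers of striatal medium spiny neurons was 1679 CPM in DG Sal 3, against 161 to 374 in the other 7 DG libraries, and the granule neuron factor Neurod1 was at 0.252 CPM in it against 14.4 to 66.4. The summed level of 6 choroid plexus markers was 2200 CPM in DG Sal 4 and 6293 in DG METH 3, against 2.25 to 195 in the other 6. It was 2305 in CA Sal 2 and 8174 in SVZ METH 3. SVZ Sal 1, SVZ METH 2 and SVZ METH 4 had the highest sums of 5 thalamic markers, at 1692, 1488 and 997 CPM. NAc METH 3 had a striatal sum of 170 CPM, against 1361 to 8275 in the other 7 NAc libraries. The library numbers in the file headers cross the labels in the DG: DG Sal 1 and 2 carry 20 and 21, the numbers borne by METH 1 and 2 of the NAc and the CA. DG METH 1 and 2 carry 14 and 15, the numbers of Sal 1 and 2 there. The 4 SVZ METH libraries carry only 1669 and 1670, each in a pair of libraries. The chi-square per gene, a measure of how far 2 libraries differ, was 124 between SVZ METH 1 and 2. It was 107 between SVZ METH 3 and 4, but 15.4 between SVZ METH 2 and 4, which carry different numbers. What a shared number stands for was not tested. The libraries were used as labelled. The comparisons are also given without DG samples 1 and 2, and those with SVZ METH libraries also with the 2 libraries of each number summed to 1. For the libraries that stand apart by markers, the DG ones were left out together, and the others only 1 at a time. In the comparison of METH effects between the DG and CA, the DG ones too were left out only 1 at a time.

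The summed level of the 9 members was 552, 301, 354 and 240 CPM in DG Sal 1 to 4 and 828, 681, 211 and 577 in DG METH 1 to 4. Per kilobase of exon, C1ql3 had the highest mean in the 8 DG libraries (93.4 CPM per kb), followed by Calb1 (39.5), C1ql2 (28.9), Prox1 (19.5), Pdzd2 (13.6), Trpc6 (8.14), Npnt (2.16) and Dsp (0.349). Tdo2 was last. It had 16 reads in all 32 libraries, none in 25 of them and at most 7 in 1 (SVZ Sal 2), so it did not pass the filter on low counts in any fit. It had 0 reads in all 4 DG Sal libraries. A count of 0 allows up to 3 reads in a library, which is a statement on counting error only.

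**Figure D1:**
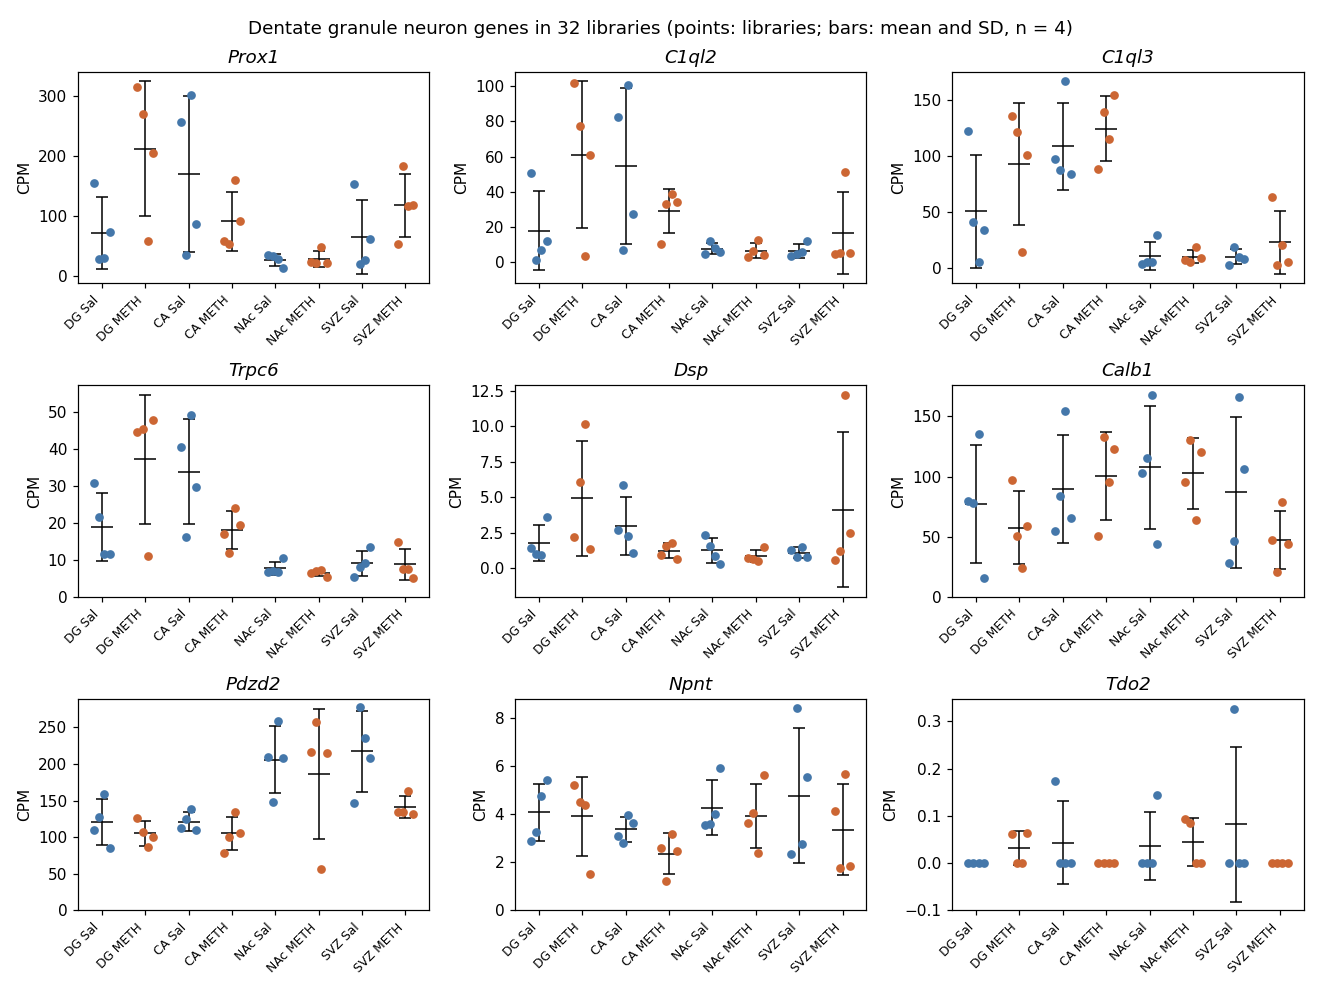
Expression (CPM, linear axis) of the 9 members in the 8 groups of 4 libraries, with points for libraries, blue for saline and orange for METH, and bars for mean and SD. Prox1, C1ql2 and Trpc6 spread widely in the DG and CA, and C1ql3 did in the DG. These genes lay lower in most NAc libraries, Pdzd2 lay highest in NAc and SVZ libraries, and Tdo2 reached at most 0.327 CPM.

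Prox1, the transcription factor of the set, had 155, 27.1, 29.4 and 73.0 CPM in DG Sal 1 to 4 and 315, 269, 57.7 and 205 in DG METH 1 to 4. The treatments overlapped, since DG METH 3 lay below DG Sal 1 and DG Sal 4. In the CA the mean was higher in saline libraries, with 256, 33.8, 301 and 85.6 CPM in CA Sal 1 to 4 and 57.9, 53.3, 160 and 90.2 in CA METH 1 to 4. The saline values of the CA thus spanned the widest range of any Prox1 group, and CA Sal 2 lay below all CA METH libraries. In the NAc, Prox1 was 12.0 to 33.6 CPM in saline and 20.2 to 47.2 in METH libraries. The SVZ libraries with high Prox1 were SVZ Sal 1 (153 CPM), SVZ METH 2 (182), SVZ METH 4 (117) and SVZ METH 3 (115), and the other 4 held 19.9 to 60.6. The first 3 of these are the libraries with the highest thalamic sums. SVZ METH 3 also exceeded the other 4 in the thalamic markers Prkcd (198 CPM), Slc17a6 (126) and Tcf7l2 (92.2). Over the 8 SVZ libraries Prox1 and the summed thalamic level correlated with r = 0.94 on the log2(CPM + 1) scale. The part of the thalamic RNA in the SVZ level of Prox1 was not tested.

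C1ql2, the mossy fibre synapse protein, had the steepest spread. It was at 50.7, 1.18, 7.07 and 12.3 CPM in DG Sal 1 to 4 and at 102, 77.3, 3.77 and 61.1 in DG METH 1 to 4. In the CA it was at 82.4, 7.25, 101 and 27.4 CPM in CA Sal 1 to 4 and at 10.5, 33.0, 39.0 and 34.0 in CA METH 1 to 4. Within DG Sal the highest library was 43.0 times the lowest, and within DG METH 26.9 times. NAc libraries held 2.80 to 12.7 CPM, and 7 of 8 SVZ libraries 3.72 to 12.3, with SVZ METH 3 at 51.2. The 3 SVZ libraries richest in thalamic markers had 3.72, 5.26 and 5.52 CPM, so that high Prox1 came without high C1ql2 in these 3. In SVZ METH 3, which held thalamic and choroid plexus markers, Prox1 at 115 CPM came with C1ql2 at 51.2.

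C1ql3, its relative, was at 122, 40.7, 5.18 and 33.7 CPM in DG Sal 1 to 4 and at 135, 122, 14.2 and 101 in DG METH 1 to 4. All 8 CA libraries lay between 83.5 and 166 CPM, a narrower range than in the DG. The lowest DG value, 5.18, was that of DG Sal 3, the library with the striatal markers, and the next lowest, 14.2, that of DG METH 3, the library with the most choroid plexus markers. In the NAc 7 of 8 libraries held 3.16 to 18.5 CPM and NAc Sal 4 held 29.1, and in the SVZ the range was 2.99 to 63.3.

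Trpc6 had 30.6, 21.5, 11.5 and 11.6 CPM in DG Sal 1 to 4 and 44.6, 45.2, 10.9 and 47.6 in DG METH 1 to 4. Thus 3 DG METH libraries lay above all DG Sal libraries, and DG METH 3 lay below all of them. In the CA it had 40.5, 16.1, 49.0 and 29.5 CPM in CA Sal 1 to 4 and 16.8, 11.7, 24.0 and 19.4 in CA METH 1 to 4, and only CA Sal 2 lay within the METH range. The NAc (5.27 to 10.3 CPM) and SVZ (4.92 to 14.7) were lower and tighter.

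Dsp was low throughout, with 1.45, 0.997, 0.947 and 3.62 CPM in DG Sal 1 to 4 and 2.17, 6.07, 10.2 and 1.33 in DG METH 1 to 4. Its highest library in 4 of the 8 groups was the one with the highest choroid plexus sum: DG Sal 4 (3.62 CPM), DG METH 3 (10.2), CA Sal 2 (5.85) and SVZ METH 3 (12.2). Over all 32 libraries Dsp and the choroid plexus sum correlated with r = 0.66 on the log2(CPM + 1) scale, and the part of choroid plexus RNA in the level of Dsp was not tested.

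Calb1 was at 79.7, 78.1, 135 and 15.5 CPM in DG Sal 1 to 4 and at 97.1, 50.6, 23.5 and 59.0 in DG METH 1 to 4, within a range of 20.2 to 168 in the other regions except for DG Sal 4. Its highest DG library was DG Sal 3 and its lowest 2 were DG Sal 4 and DG METH 3. Pdzd2 was at 110, 128, 159 and 85.3 CPM in DG Sal 1 to 4 and at 127, 107, 86.5 and 100.4 in DG METH 1 to 4, and again DG Sal 3 was highest. NAc Sal (148 to 258 CPM) and SVZ Sal (147 to 278) lay higher, and over the 32 libraries Pdzd2 and the striatal sum correlated with r = 0.85. Npnt lay between 1.20 and 8.42 CPM in all 32 libraries.

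Ordered by their means, the regions overlapped for nearly every member. In saline, Prox1 was highest in the CA (169 ± 130 CPM, SD, n = 4), then in the DG (71.0 ± 59.6), SVZ (64.8 ± 61.5) and NAc (26.5 ± 9.99). After METH the order was DG (212 ± 112), SVZ (117 ± 52.5), CA (90.2 ± 49.0) and NAc (27.8 ± 13.0). Of the 54 neighbours in such orders over 9 members and both treatments, 52 had overlapping ranges. The exceptions were Prox1 in METH samples between the CA and NAc, and Pdzd2 in saline samples between the NAc and CA. The neighbours of Tdo2 could only overlap, because its lowest library was at 0 CPM in every group. The share of overlapping neighbours over all genes was not counted.

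To ask whether the DG could be told from the other regions by these genes, each region was compared by edgeR's quasi-likelihood test, and a gene was called at an FDR (Benjamini-Hochberg adjusted p over all genes tested) under 0.01 and a fold change above 2. Log2 fold changes are DG against the other region, with the SE. Of the 8 members tested (Tdo2 was filtered out), 0 were called in the saline samples against the CA, NAc, SVZ or the other 3 regions together. Of all 15515 genes, 0.00%, 0.00%, 0.0193% and 0.00% were called. In saline, Prox1 differed by -1.24 (SE 0.76) between the DG and CA and C1ql2 by -1.61 (SE 0.87), and neither passed (FDR = 0.635 and 0.594). The median over the 8 members was -0.79 against the CA, beside 0.05 over all genes. Against the CA, 1 member had an unadjusted p under 0.05 (Trpc6, -0.84, SE 0.37, FDR = 0.546), beside 8.93% of all genes. The count was 3 against the NAc (11.5% of all genes), 3 against the SVZ (17.6%) and 1 against the other 3 regions (4.12%). Against the NAc, C1ql3 was at 2.20 (SE 0.84, FDR = 0.375), Trpc6 at 1.25 (SE 0.38, FDR = 0.354) and Pdzd2 at -0.79 (SE 0.22, FDR = 0.354). DESeq2 called 0 members in the saline samples too. Without DG Sal 3 and DG Sal 4, 0 members were called, and Trpc6 stood at 1.70 (FDR = 0.0515) against the NAc and at -0.40 (SE 0.41, FDR = 1.00) against the CA, so that 0 members had an unadjusted p under 0.05 against the CA. Prox1 (-0.91), C1ql2 (-1.08) and C1ql3 (-0.43) against the CA were then nearer to 0 as well. Against the SVZ, Pdzd2 was then at -0.94 (SE 0.25, FDR = 0.0474). Without DG Sal 1 and DG Sal 2, 0 members were called, and the same difference from the CA was -1.50 for Trpc6 (SE 0.43, FDR = 0.0952). The DG then rested on DG Sal 3 and DG Sal 4, both of which stand apart by markers.

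In the METH samples the DG was set apart from the NAc by Prox1 and Trpc6. Prox1 was higher by 2.90 on the log2 scale (SE 0.53, FDR = 0.0030), with DG METH libraries at 57.7 to 315 CPM and NAc METH libraries at 20.2 to 47.2. Trpc6 was 5.65-fold higher (log2 SE 0.42, FDR = 0.0017), at 10.9 to 47.6 against 5.27 to 7.21 CPM. Neither gene's groups overlapped, and the share of all genes without overlap between these 2 groups was not counted. The 2 calls among 8 members stand beside 3.10% of 15615 genes called. C1ql3 (3.19, SE 0.85, FDR = 0.0243) and C1ql2 (3.16, SE 0.96, FDR = 0.0448) had larger differences with larger errors and were not called. Dsp stood at 5.66-fold (log2 SE 0.87, FDR = 0.0763), Pdzd2 at -0.84 (SE 0.32, FDR = 0.103), Calb1 at -0.85 (SE 0.44, FDR = 0.234) and Npnt at -0.02 (SE 0.45, FDR = 0.983). At an FDR under 0.05, 4 members would be called (Prox1, Trpc6, C1ql2 and C1ql3), beside 5.81% of all genes. DESeq2 called the same 4 at an FDR under 0.01, and its share of all genes is not given here. The call of Prox1 was lost without NAc METH 1 (FDR = 0.0130), NAc METH 2 (FDR = 0.0141) or NAc METH 4 (FDR = 0.0127), and that of Trpc6 was kept without any 1 library, with an FDR between 0.000126 and 0.00827. Without DG METH 3, Prox1 was at 3.21 (FDR = 0.000754) and Trpc6 at 2.80, while Dsp was at 1.84 (SE 0.88, FDR = 0.203). Without DG METH 1 and DG METH 2, whose library numbers cross the labels, both calls were lost, with Prox1 at 2.22 (SE 0.57, FDR = 0.0476) and Trpc6 at 2.16 (SE 0.48, FDR = 0.0277). The DG then rested on DG METH 4 and on DG METH 3, which stands apart by markers. With the SVZ METH libraries of each number summed, Prox1 and Trpc6 were called and so was C1ql3 (FDR = 0.00335). Pdzd2 was called without NAc METH 3 (-1.14, FDR = 0.000793), and C1ql3 without SVZ METH 1, whose library enters the shared estimate of spread (FDR = 0.00805).

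Against the SVZ, Trpc6 was the 1 member called in the METH samples, higher in the DG by 2.06 (SE 0.41, FDR = 0.0035), beside 3.94% of all genes, and at an FDR under 0.05 it was again the 1, beside 7.94%. The groups overlapped, because DG METH 3 (10.9 CPM) lay below SVZ METH 1 (14.7). The call was lost without DG METH 1 (FDR = 0.0120), DG METH 2 (FDR = 0.0109), DG METH 4 (FDR = 0.0130), SVZ METH 2 (FDR = 0.0120), SVZ METH 3 (FDR = 0.0117) or SVZ METH 4 (FDR = 0.0131). It was lost as well without DG METH 1 and DG METH 2 together (1.72, SE 0.48, FDR = 0.0542) and with the SVZ METH libraries of each number summed (2.08, SE 0.49, FDR = 0.0141). Without DG METH 3 it was at 2.36 (FDR = 0.000263). C1ql3 stood at 1.98 (SE 0.80, FDR = 0.0866), C1ql2 at 1.80 (SE 0.90, FDR = 0.158) and Prox1 at 0.82 (SE 0.50, FDR = 0.247). Without SVZ METH 1, C1ql3 was called (3.24, FDR = 0.00859).

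Between the DG and CA of METH rats 0 members were called, beside 0.00% of all genes. Prox1 was at 1.24 (SE 0.50, FDR = 0.384), Dsp at 2.02 (SE 0.84, FDR = 0.403) and Trpc6 at 1.06 (SE 0.39, FDR = 0.338), each with an unadjusted p under 0.05, as in 10.9% of all genes. Without DG METH 3, Dsp was at 1.36 (SE 0.86, FDR = 0.657) and no longer had such a p, and Prox1 (1.55, FDR = 0.204) and Trpc6 (1.36, FDR = 0.0961) did. Without DG METH 1 and DG METH 2, Prox1 (0.56, SE 0.58, FDR = 0.788) and Trpc6 (0.72, SE 0.48, FDR = 0.648) did not, and Dsp (2.26, SE 0.99, FDR = 0.489) and Calb1 (-1.27, SE 0.55, FDR = 0.486) did. Against the other 3 regions together, 0 members were called, beside 0.0320% of all genes, and Trpc6 came closest (1.74, SE 0.39, FDR = 0.0385). At an FDR under 0.05 that was 1 member, beside 0.634% of all genes, and 3 members had an unadjusted p under 0.05, beside 17.6%. DESeq2 called Trpc6 too, and its share of all genes is not given here. The saline and METH comparisons of regions share no library, and the change in the DG-to-CA difference with METH is the interaction given further on.

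**Figure D2:**
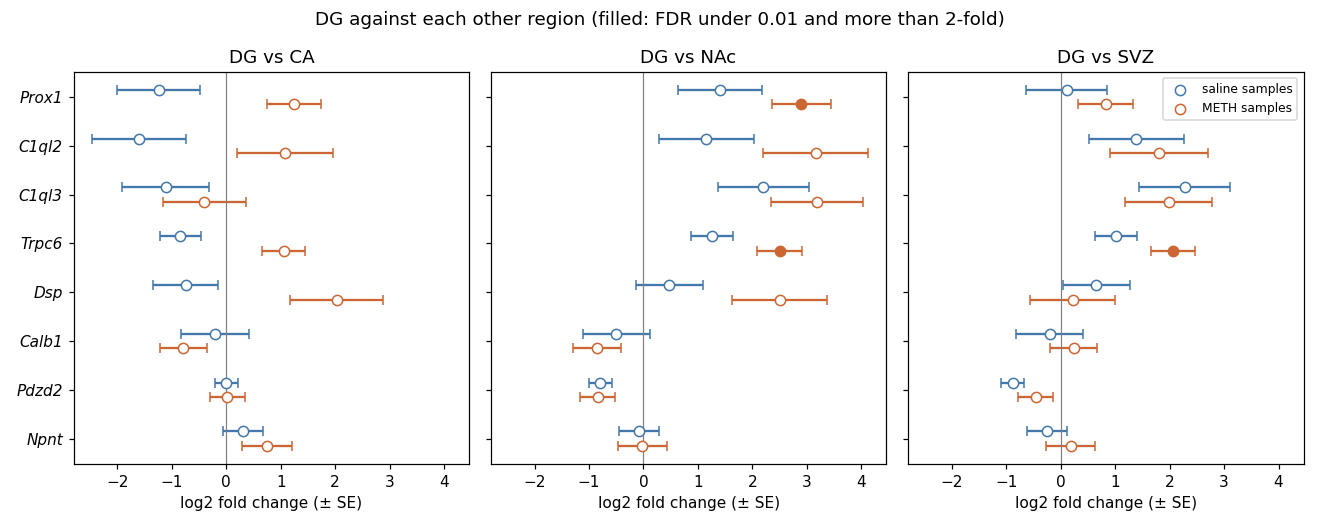
Log2 fold change (± SE) of the DG against the CA, NAc and SVZ for the 8 members tested, in saline samples (blue) and METH samples (orange), with filled points for genes called. Filled points are Prox1 and Trpc6 against the NAc and Trpc6 against the SVZ, all in METH samples.

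Each library name in a header starts with a prefix, and prefixes are spread unevenly over the groups. The SVZ has a prefix of its own, so prefix and region cannot be told apart in the comparisons with the SVZ. DG METH 3 and 4 share a prefix with NAc METH 3 and 4, and there Prox1 was at 57.7 and 205 CPM in the DG against 47.2 and 20.2 in the NAc, and Trpc6 at 10.9 and 47.6 against 7.21 and 5.27.

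The next question was whether METH changed these genes in any region. With the 8 libraries of a region, the same test and an FDR under 0.01 with a fold change above 1.5, 0 of the 8 members tested were called in the DG, CA, NAc or SVZ, beside 0.00% of all genes in each region. DESeq2 called 0 members in each region too. In the DG, the log2 fold change of METH against saline was 1.59 for Prox1 (SE 0.66, FDR = 0.375), 1.79 for C1ql2 (SE 1.10, FDR = 0.554), 0.91 for C1ql3 (SE 0.87, FDR = 0.744) and 1.00 for Trpc6 (SE 0.48, FDR = 0.432). It was 1.51 for Dsp (SE 0.72, FDR = 0.434). Calb1 (-0.41, SE 0.60), Pdzd2 (-0.18, SE 0.19) and Npnt (-0.06, SE 0.39) were on the other side of 0. An unadjusted p under 0.05 was reached by 1 member (Prox1), beside 12.8% of all genes. The median over the 8 members was 0.95, against -0.01 over all genes. No member's METH and saline libraries stood apart without overlap in the DG, CA, NAc or SVZ, which 6.80%, 4.44%, 2.30% and 1.69% of all genes were.

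In the CA 4 of the 5 genes with positive estimates in the DG had negative ones. Prox1 was at -0.90 (SE 0.63, FDR = 0.754), C1ql2 at -0.90 (SE 0.69, FDR = 0.776), Trpc6 at -0.91 (SE 0.33, FDR = 0.669) and Dsp at -1.25 (SE 0.51, FDR = 0.687). C1ql3 (0.20, SE 0.25) and Calb1 (0.17, SE 0.37) were slightly positive. The unadjusted p of Trpc6 (0.0233) and Dsp (0.0364) was under 0.05, as in 7.16% of all genes. The median was -0.70, against 0.01 over all genes.

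The difference between the effects of METH in the DG and in the CA was taken as an interaction term over those 16 libraries. It was called for 0 members and 0.00% of 15308 genes at an FDR under 0.01, and DESeq2 called 0 members too. The largest differences were 2.76 for Dsp (SE 0.94, FDR = 0.200), 2.68 for C1ql2 (SE 1.39, FDR = 0.375), 2.48 for Prox1 (SE 1.00, FDR = 0.258) and 1.90 for Trpc6 (SE 0.63, FDR = 0.189). Prox1, Dsp and Trpc6 had an unadjusted p under 0.05 (0.0256, 0.0107 and 0.00866), as had 15.4% of all genes. C1ql3 was at 0.70 (SE 0.96), Calb1 at -0.59 (SE 0.76), Npnt at 0.44 (SE 0.50) and Pdzd2 at 0.01 (SE 0.26). The interaction was not fitted without all the DG libraries that stand apart by markers. All 6 choroid plexus markers had positive estimates in the same contrast, with a median of 3.78, while the 8 striatal markers had a median of -2.82. Single libraries weigh on these values. The choroid plexus sum reached 6293 CPM in DG METH 3 and 2305 in CA Sal 2, but its median was 104 in DG Sal and 20.3 in DG METH. The striatal sum reached 1679 CPM in DG Sal 3. Of the 6 CA pyramidal markers tested, 5 had positive estimates, with a median of 0.98 over the 6. An unadjusted p under 0.05 was reached by 3 of these 5, so positive estimates were not particular to granule neuron genes.

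Without the DG libraries that stand apart (DG Sal 3, DG Sal 4 and DG METH 3), the effect of METH in the DG was 1.57 for Prox1 (SE 0.68, FDR = 0.339), 1.65 for C1ql2 (SE 1.10, FDR = 0.507) and 0.86 for Trpc6 (SE 0.18, FDR = 0.167). It was 0.59 for C1ql3 (SE 0.44, FDR = 0.549), 1.41 for Dsp, -0.04 for Pdzd2 and -0.15 for Calb1 (SE 0.27, FDR = 0.820), so that the estimates of C1ql3, Pdzd2 and Calb1 were over 1.5 times smaller in size, and Npnt turned to 0.32. Without DG samples 1 and 2 of both treatments, whose library numbers cross the labels, it was 1.33 for Prox1 (FDR = 0.765) and 1.31 for Trpc6 (FDR = 0.757). That fit rests on DG METH 4 and the 3 libraries that stand apart, and it does not give the effect under exchanged labels, which was not fitted. An exchange would move the libraries with the highest Prox1 of the DG, DG METH 1 and 2 (315 and 269 CPM), to saline. It would move DG Sal 1 and 2 (155 and 27.1 CPM) to METH. Only 1 prefix holds DG libraries of both treatments, with Prox1 at 29.4 CPM in DG Sal 3 and at 315 and 269 in DG METH 1 and 2. DG Sal 1, 2 and 4 share another prefix, and DG METH 3 and 4 yet another. In the CA, Prox1 within a prefix was at 301 CPM in CA Sal 3 against 160 and 90.2 in CA METH 3 and 4, and at 85.6 in CA Sal 4 against 57.9 and 53.3 in CA METH 1 and 2. Trpc6 within the same prefixes was at 49.0 against 24.0 and 19.4 CPM, and at 29.5 against 16.8 and 11.7.

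**Figure D3:**
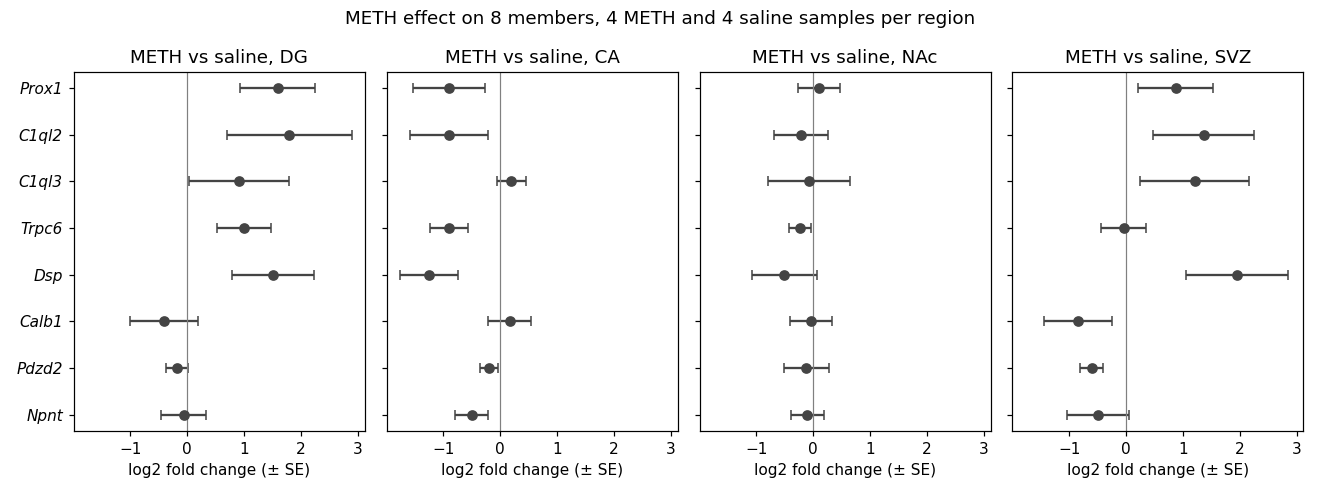
Log2 fold change (± SE) of METH against saline for the 8 members tested, in the DG, CA, NAc and SVZ with 4 libraries per group. In the DG Prox1, C1ql2, C1ql3, Trpc6 and Dsp lie above 0, in the CA Prox1, C1ql2, Trpc6 and Dsp lie below 0, and no estimate is called.

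In the NAc all 8 estimates lay between -0.51 (Dsp) and 0.10 (Prox1), and 0 had an unadjusted p under 0.05, beside 3.39% of all genes. In the SVZ they ranged from -0.85 (Calb1) to 1.94 (Dsp, SE 0.89, FDR = 0.979). Without SVZ METH 3, the library with the most choroid plexus markers, Dsp was at 0.38 (SE 0.51, FDR = 0.902). Pdzd2 was not called, at -0.61 (SE 0.20, FDR = 0.979), with 147 to 278 CPM in saline and 132 to 164 in METH libraries. It was the 1 member with an unadjusted p under 0.05 there, beside 2.58% of all genes.

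Prox1, C1ql2, C1ql3 and Trpc6 varied together among the DG libraries, and in the CA Prox1, C1ql2 and Trpc6 did. Over the 8 DG libraries, the Pearson correlation of log2(CPM + 1) was 0.95 between Prox1 and C1ql2, 0.84 between Prox1 and C1ql3, 0.82 between Prox1 and Trpc6 and 0.89 between C1ql3 and Trpc6. Over the 8 CA libraries it was 0.91 between Prox1 and C1ql2 and 0.89 between Prox1 and Trpc6, 0.73 between C1ql2 and Trpc6, but 0.39 between Prox1 and C1ql3 and 0.12 between C1ql3 and Trpc6. Calb1 went with Pdzd2 in the DG (0.92) and hardly with Prox1 (0.02). Dsp had 0.20 with Prox1 in the DG. Over all 32 libraries Prox1 and C1ql2 had 0.75 and C1ql3 and Trpc6 0.84. The points of such a correlation share a library's depth and its mix of cells, so these values describe the libraries.

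**Figure D4:**
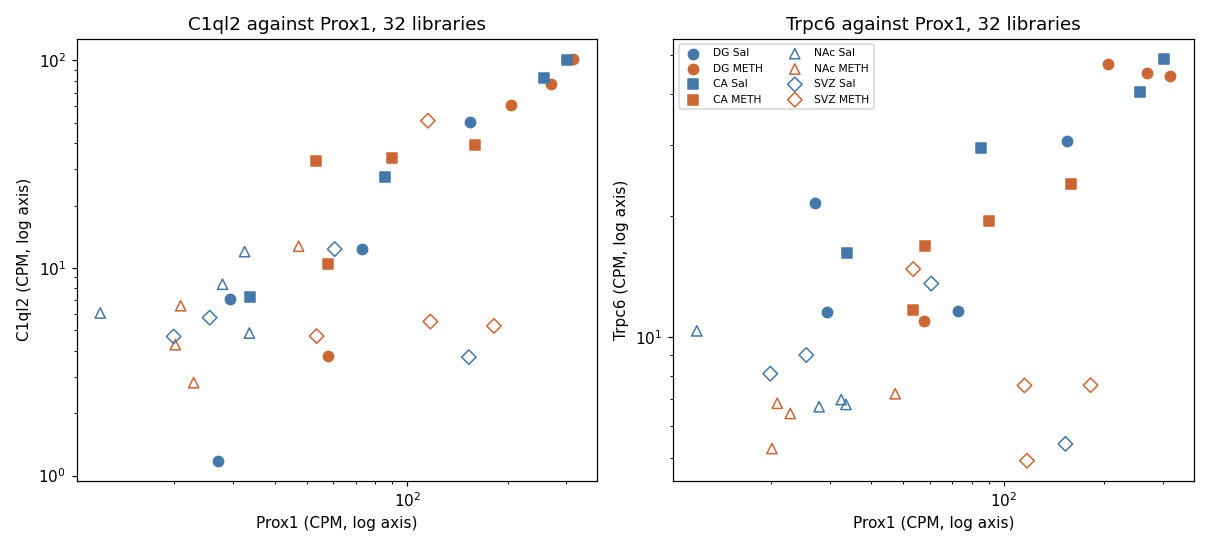
C1ql2 (left) and Trpc6 (right) against Prox1 in 32 libraries, all in CPM on log axes, by region (symbol) and treatment (blue saline, orange METH). DG and CA libraries run together from Prox1 near 30 and C1ql2 under 10 CPM to both near their highest, and 3 SVZ libraries with Prox1 from 117 to 182 CPM lie at C1ql2 under 6 CPM.

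Of 16114 genes outside the set, the 5 whose log2(CPM + 1) was most like the mean z-score of the 8 members over 32 libraries were Piezo2 (r = 0.87), a mechanically gated channel, Olr1462 (0.86), an olfactory receptor gene, Ddo (0.82), which oxidizes D-aspartate, Rfx3 (0.80), a transcription factor, and Plau (0.80), the urokinase. Piezo2 was at 9.82 ± 9.55 CPM in DG Sal and 30.7 ± 21.3 in DG METH, and at 27.3 ± 23.0 in CA Sal and 16.2 ± 10.4 in CA METH (SD, n = 4). Olr1462 and Plau were low, with group means of at most 3.13 and 1.26 CPM.

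A second list of 12 granule neuron genes was read beside the members: 11 are in the files and 10 were tested. Its sum was 525 to 863 CPM in DG Sal, 546 to 1267 in DG METH, 623 to 1249 in CA Sal and 682 to 946 in CA METH. In the DG 9 of 10 estimates of METH against saline were positive, with a median of 0.59, and in the CA 1 of 10, with a median of -0.39, and 0 were called in either. The transcription factors Zbtb20 (1.01, SE 0.21, FDR = 0.164) and Glis3 (0.81, SE 0.16, FDR = 0.164) had the lowest FDR. In METH samples of the DG against the SVZ, 3 of the 10 were called, all higher: Neurod1, a granule neuron transcription factor (3.51, SE 0.84, FDR = 0.0096), the vesicular zinc transporter Slc30a3 (3.73, SE 0.87, FDR = 0.0087) and Stxbp6 (1.18, SE 0.26, FDR = 0.0062). All genes tested were called in 3.94% there. Against the NAc 0 of the 10 were called, beside 3.10% of all genes, with Neurod1 at 3.38 (SE 0.84, FDR = 0.0174) and Zbtb20 at 0.99 (SE 0.25, FDR = 0.0178) nearest and Pdyn, the precursor of dynorphin, at -2.33 (SE 0.68, FDR = 0.0363). Against the CA 0 of the 10 were called too. Of the 5 genes of immature granule neurons tested (doublecortin and others), 0 were called in the DG, where 4 of 5 estimates of METH were negative with a median of -0.74.

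Markers of other cells varied beside the members in the DG. The striatal sum was 229 to 1679 CPM in DG Sal and 161 to 374 in DG METH, and all 8 estimates were negative (median -2.16). The choroid plexus sum was 2.25 to 2200 CPM in DG Sal and 7.81 to 6293 in DG METH, and the CA pyramidal sum 295 to 424 and 302 to 1116. For METH in the DG, 5 of the 6 CA pyramidal genes tested had positive estimates (median 0.88 over the 6). An unadjusted p under 0.05 was reached by 3 of them, beside 12.8% of all genes. The cortical glutamatergic sum was 76.7 to 651 CPM in DG Sal and 97.2 to 197 in DG METH, and the oligodendrocyte sum 3237 to 11811 and 2868 to 14040. The immature granule, thalamic, interneuron, astrocyte, microglia, endothelial and ependymal sums overlapped between treatments as well, and the Y chromosome sum lay between 81.6 and 107 CPM in the 8 DG libraries. Of the 77 genes tested over the 14 marker lists, 0 were called for METH in the DG. The CA pyramidal marker Fibcd1 and the endothelial marker Cldn5 had 0 reads in all 8 DG libraries and at most 1 read in any of the 32, so they inform on no library here. The part of these cells in the levels of Prox1, C1ql2, C1ql3 and Trpc6 was not tested.

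**Figure D5:**
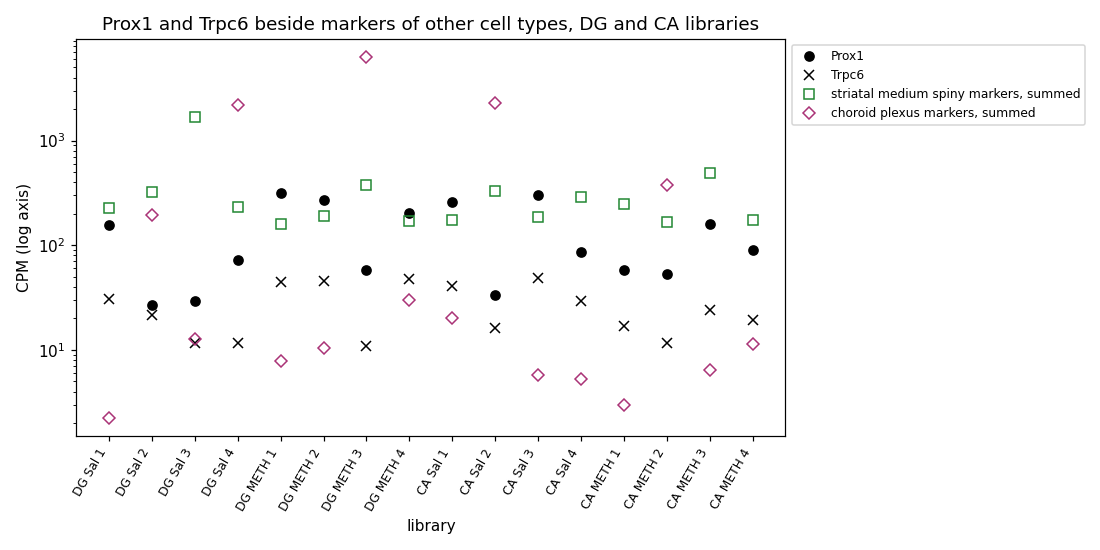
Prox1, Trpc6 and the summed levels of 8 striatal and 6 choroid plexus markers in the 8 DG and 8 CA libraries (CPM, log axis). DG Sal 3 has the highest striatal sum (1679 CPM), and DG Sal 4, DG METH 3 and CA Sal 2 the highest choroid plexus sums (2200, 6293 and 2305 CPM) beside Prox1 at 73.0, 57.7 and 33.8 CPM.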

How the data were processed

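Total RNA of 4 brain regions, depleted of ribosomal RNA, was sequenced in 32 libraries. The authors trimmed reads with cutadapt 2.7, mapped them to rn6 with STAR 2.5.2b and deposited unnormalized counts per gene made with featureCounts 1.6.3, without strand. The file headers name an Ensembl annotation. Paralogs, overlapping genes and antisense genes cannot be told apart by these counts. Exons of 171 names are spread over several chromosomes, and no member is among these. The count matrix of the series was not used.

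Counts were scaled by the upper quartile, filtered with filterByExpr and tested with edgeR 4.0.16 (quasi-likelihood, Benjamini-Hochberg) in R 4.3.3. Alternatives were TMM, DESeq2 1.42.0, no filter, an FDR under 0.05, the replicate number as a block, 1 fit of all 32 samples, DG samples 1 and 2 left out, and each library left out. Chosen after seeing the data were leaving out DG Sal 3, DG Sal 4 and DG METH 3, leaving out DG samples 1 and 2 in the comparisons of regions, and summing the SVZ METH libraries of 1 number. The SE was taken as the size of the estimate over the root of its F statistic. Groups follow the labels, and where these do not name separate animals, p-values measure the spread between libraries. The 48 pairs of libraries of 1 group differed beyond counting noise (chi-square per gene of 15.4 or more). The fits were also run on simulated counts. These had the same setting of spread for every gene and no library set apart by markers, so they do not give error rates here. Figures were drawn with matplotlib 3.10.9.

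The members, the marker lists and the tests were chosen with earlier results of these data known. Named genes are the 9 members, the 5 genes most like their mean z-score, and genes of 15 lists (counts, summed level, genes of the highest mean). Neurod1, Pdyn, Zbtb20, Slc30a3, Stxbp6, Glis3, Fibcd1 and Cldn5 were named after their values were seen.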

Additional observations from a re-analysis of the deposited data

Results flagged for a closer look

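Of 64 groups of 4 libraries (8 members in 8 groups), 8 held a library whose gap to the next took up more of the group's range than the 95% value of Dixon's test, which chance passes in about 1 in 20 groups. SVZ METH 3, the library with the most choroid plexus markers, was high in 3 of them: C1ql2 at 51.2 CPM (the others 4.70 to 5.52), Dsp at 12.2 (0.574 to 2.46) and Pdzd2 at 164 (132 to 135). NAc Sal 4 was high in C1ql3 at 29.1 CPM (3.16 to 5.13) and in Trpc6 at 10.3 (6.70 to 6.97). NAc METH 3, whose striatal sum of 170 CPM was the lowest of the NAc, was high in Prox1 at 47.2 CPM (20.2 to 22.9). CA Sal 3 was high in C1ql3 at 166 CPM (83.5 to 96.9). DG METH 3 was low in Trpc6 at 10.9 CPM (44.6 to 47.6). What sets these libraries apart was not tested.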

How the results depend on the processing

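Of 2120 estimates recomputed for the members under other settings, 1990 kept their direction and side of the threshold, 13 lost a call, 10 gained one and 107 changed sign. Of the members, 0 were called for METH against saline, the interaction or the saline comparisons under any setting run. For METH samples of the DG against the NAc, 2 members were called, 4 at an FDR under 0.05 and 4 with DESeq2, 1 to 3 with a library left out and 0 without DG METH 1 and 2. Against the SVZ 1 was called, 0 to 2 with a library left out, 0 without DG METH 1 and 2 and 0 with the SVZ METH libraries of 1 number summed. Against the other 3 regions 0 members were called, 1 at an FDR under 0.05 and 1 with DESeq2. Shares of all genes called are given only for edgeR with all libraries. The counts with DESeq2 and with libraries left out or summed have no such share beside them.

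For no comparison made did all same-numbered libraries of its groups correlate above 0.1, where the DG was set against a region or METH against saline. For CA Sal with NAc Sal, which share the saline fit and carry the same library numbers, they did (0.118 to 0.245). For CA METH with NAc Sal, which are of opposite treatments and so of different animals, they did as well (0.204 to 0.263). For CA METH with NAc METH, which carry the same library numbers, they did not (-0.104 to 0.234). Regions may come from the same animals, which the labels do not state, and these correlations cannot decide it. With the replicate number as a block, the members called stayed at 2 (DG against NAc) and 1 (DG against SVZ) in METH samples, and 0 elsewhere. That number is the one of the labels. It joins DG samples 1 and 2 with libraries of other library numbers, so the block cannot show what pairing by animal would change. The block turned C1ql3 (0.35) and Calb1 (0.055) for METH in the NAc, Dsp in saline DG against the other 3 regions (0.18) and Pdzd2 in saline DG against the CA (-0.016).

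Pdzd2 in that comparison was also -0.026 with TMM, -0.011 without the filter, -0.025 with DESeq2 and -0.053 without DG Sal 3 and 4. Without DG Sal 3 and 4, Prox1 (0.037) and C1ql2 (0.15) against the other 3 regions, Npnt against the CA (-0.15) and Dsp against the NAc (-0.086) changed sign. Npnt for METH in the DG was 0.32 without DG Sal 3, DG Sal 4 and DG METH 3. Without DG samples 1 and 2 the interaction was -0.20 for Pdzd2 and -0.27 for Npnt. In saline samples, Dsp (0.39), C1ql3 (-1.10), Trpc6 (-0.51) and Npnt (0.31) changed sign against the other 3 regions, Npnt (0.26) against the NAc, and Prox1 (-0.33) and Npnt (0.085) against the SVZ. In METH samples, Npnt (-0.11) changed sign against the other 3 regions, Pdzd2 (-0.14) against the CA, and Calb1 (-0.23) and Npnt (-0.19) against the SVZ. In the DG, the fits without samples 1 and 2 kept only DG METH 4 and the libraries that stand apart by markers. Npnt in METH samples of the DG against the NAc was 0.028 with TMM and 0.016 with DESeq2. The cause of these changes was not tested.

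With each library left out in turn, these log2 fold changes of members that were not called crossed 0. For METH vs saline in DG they were Calb1 -0.78 to 0.035 and Npnt -0.22 to 0.21. For METH vs saline in CA they were Calb1 -0.011 to 0.57. For METH vs saline in NAc they were C1ql2 -0.76 to 0.082, Calb1 -0.30 to 0.25, Prox1 -0.29 to 0.23, C1ql3 -0.58 to 1.19, Npnt -0.33 to 0.10 and Pdzd2 -0.33 to 0.18. For METH vs saline in SVZ they were Trpc6 -0.42 to 0.24, C1ql3 -0.056 to 1.72 and C1ql2 -0.37 to 1.87. For the interaction they were Pdzd2 -0.11 to 0.19. For DG vs other 3 regions in saline samples they were Dsp -0.67 to 0.32, C1ql3 -0.70 to 0.65, Trpc6 -0.18 to 0.42, Npnt -0.21 to 0.12, C1ql2 -1.70 to 0.16, Calb1 -0.75 to 0.030 and Prox1 -0.99 to 0.071. For DG vs CA in saline samples they were Pdzd2 -0.17 to 0.13 and Calb1 -0.65 to 0.19. For DG vs NAc in saline samples they were C1ql2 -0.18 to 1.54, Npnt -0.26 to 0.13 and Dsp -0.19 to 0.91. For DG vs SVZ in saline samples they were Prox1 -0.59 to 0.96, Dsp -0.0022 to 0.87, Calb1 -0.64 to 0.31 and Npnt -0.48 to 0.18. For DG vs CA in METH samples they were Pdzd2 -0.10 to 0.17. For DG vs NAc in METH samples they were Npnt -0.20 to 0.25. For DG vs SVZ in METH samples they were Calb1 -0.13 to 0.62, Dsp -0.43 to 1.79 and Npnt -0.035 to 0.58.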
